A study of Rattus norvegicus with 6 samples.

Results

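The contacts of a gene promoter on rat chromosome 13 with chromosome 20 were described from 4C-seq maps of cardiac endothelial cells. All 14596 EcoRI fragments that the deposited tables list on chromosome 20 (genome build rn5, positions 0 to 57791882) were used, of 759990 fragments on all chromosomes but 13. The 6 libraries were SS13BN 1 to 3, from the consomic strain SS-13BN/Mcwi, and SS 1 to 3, from the Dahl salt-sensitive strain SS/JrHsdMcwi. SS13BN rats carry a Brown Norway chromosome 13 on the SS background, so chromosome 20 has the same origin in both strains while the promoter that served as viewpoint does not. In both groups the cells were at passage 2, came from pooled males and females, and were fixed with 2% formaldehyde for 10 min. Nothing in the labels ties a library to its own animal or culture. The p-values of tests across libraries below thus reflect only how far these 6 libraries spread, and that spread may be technical. Those of the binomial tests count fragments within a single library and hold no spread between libraries.

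In 4C-seq, DNA that lay near a chosen viewpoint in fixed nuclei is ligated to it and read out fragment by fragment. Contacts between different chromosomes are sparse, and each fragment of another chromosome is usually seen or not seen, so contact frequency is read as the share of fragments captured over a stretch. In mammalian nuclei, gene-dense active stretches of different chromosomes tend to lie near each other and away from inactive ones, and 4C profiles on other chromosomes therefore commonly show broad domains. Rat chromosome 20 is known for the RT1 complex, the rat major histocompatibility complex, which holds genes for antigen presentation. The RefSeq table of the GRCr8 assembly lists 1360 genes on chromosome 20, 67 of them with an RT1 symbol, and 0 RT1 symbols elsewhere. That assembly is not the build of the contact tables, so no gene was assigned to any position below and no sequence was read.

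Each row of the tables gives a fragment and a score, which is the number of captured fragments among the 501 fragments centred on it, minus the number given by the captured share of the chromosome, in units of the binomial SD. A row's score thus describes its neighbourhood, and the fragment itself may not be captured. From the scores, a captured or not captured state was solved for each fragment, and these states rebuilt 100% of the chromosome 20 scores in each library. Capture was 11.0%, 19.2% and 9.12% of chromosome 20 fragments in SS13BN 1, 2 and 3, with 95% Wilson intervals of 10.5% to 11.5%, 18.6% to 19.8% and 8.66% to 9.60%. It was 13.6%, 11.5% and 11.9% in SS 1, 2 and 3, with intervals of 13.1% to 14.2%, 11.0% to 12.0% and 11.4% to 12.5%. These intervals cover counting error only. SS13BN 3 and SS 3 differed from the other libraries in their tables, since all chromosome 13 rows are listed at 0 in these 2 files, and values on chromosome 20 are given with and without them where they decide a result.

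Chromosome 20 as a whole was captured slightly above the level of the 18 other autosomes, without passing the test. Its captured share relative to theirs was 1.09, 1.09 and 1.03 in SS13BN 1, 2 and 3, and 1.09, 1.14 and 0.987 in SS 1, 2 and 3. It lay above 1 in 5 of 6 libraries, with a mean of 1.07 ± 0.0532 (SD, n = 6). The mean log2 ratio of 0.093 had an exact two-sided sign-flip permutation p of 0.0625, where 6 libraries allow 0.03125 at the least. With chromosome X added to the comparison the mean was 0.12 and p was 0.03125. With the expectation set by fragment length it was 0.054 and p was 0.125. The lowest values were those of SS 3 and SS13BN 3, and the mean of the other 4 libraries was 0.14.

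Strain made no detectable difference to this level. Relative capture of chromosome 20 averaged 1.07 ± 0.0350 in SS13BN and 1.07 ± 0.0764 in SS (SD, n = 3 each). The difference in mean log2 ratio, SS13BN minus SS, was -0.0037, and a two-sided exact permutation test gave p = 0.9, where 3 against 3 libraries allow 0.1 at the least. In the limma fit over 20 chromosomes the difference was -0.0032 with a 95% half-width of 0.11 (log2 scale; adjusted p = 0.953).

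**Figure D1:**
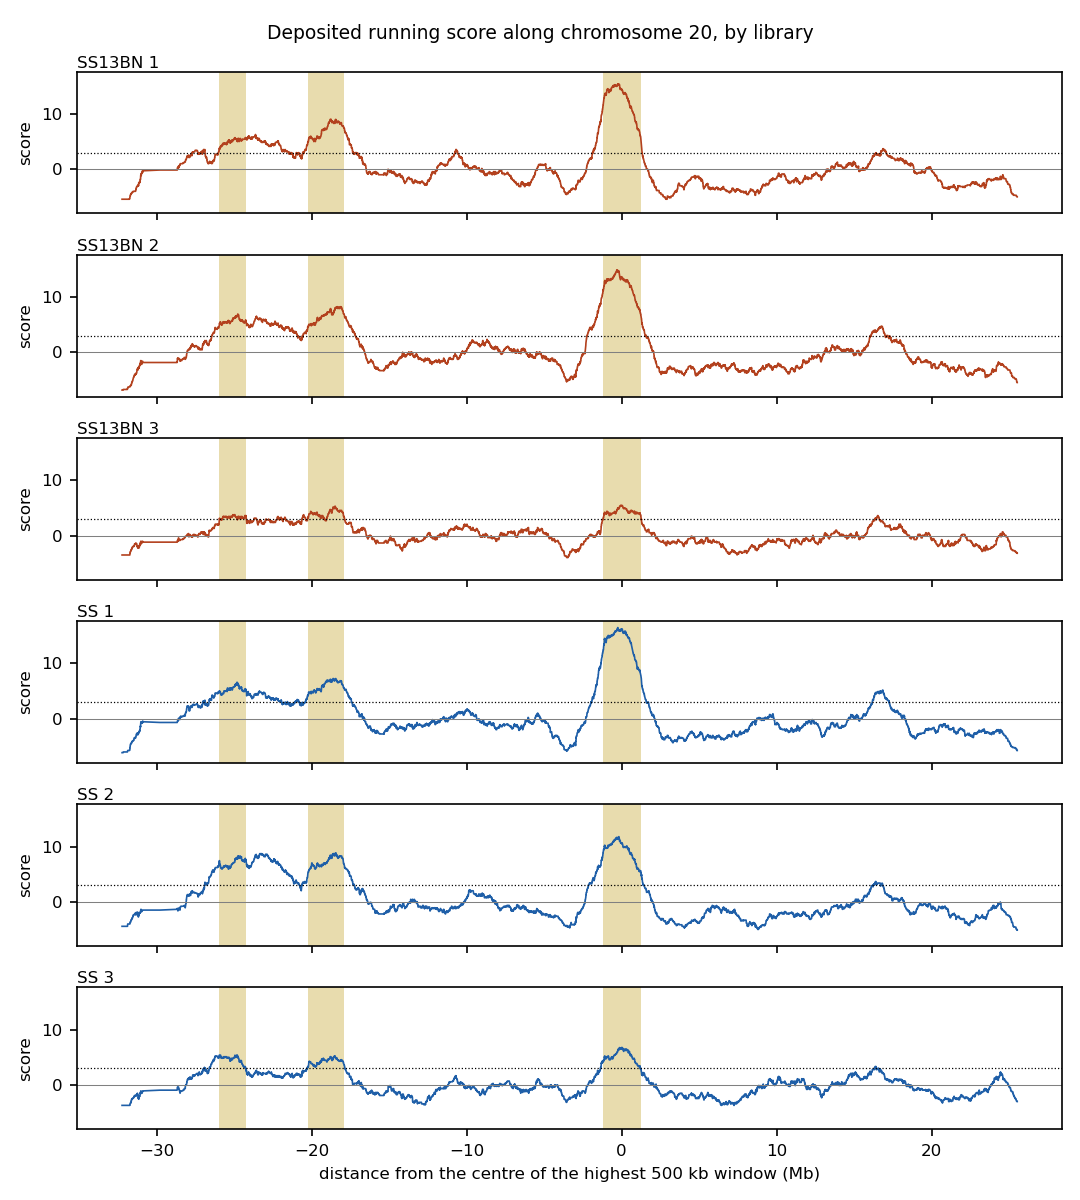
Deposited running score (SD units, vertical axis) of every chromosome 20 fragment against its distance in Mb from the centre of the highest 500 kb window, with SS13BN 1 to 3 above SS 1 to 3. Shaded bands are stretches with a score of at least 3 (dotted line) in all 6 libraries; the central peak is the highest in each library and runs from 5.48 in SS13BN 3 to 16.5 in SS 1. The straight line near the left end crosses a single row of 2.21 Mb.

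The captures were denser in a few broad stretches of the chromosome, although most lay outside them. In the values that follow, relative capture is the captured share of a window divided by the library's share over all chromosomes but 13. Of 12 bins of 5 Mb, those from 30 to 35 Mb, from 10 to 15 Mb and from 5 to 10 Mb had the highest relative capture. The bin from 30 to 35 Mb was at 1.98, 1.82 and 1.35 in SS13BN 1, 2 and 3, and at 2.07, 1.90 and 1.34 in SS 1, 2 and 3. The 2 bins from 5 to 15 Mb averaged 1.66 ± 0.275 and 1.70 ± 0.223 (SD, n = 6). All 3 of these bins lay above 1.3 in every library. The next highest bin, from 45 to 50 Mb, averaged 1.21 ± 0.0414 (SD, n = 6). The lowest bin, from 35 to 40 Mb, averaged 0.734 ± 0.0673 (SD, n = 6) and ran from 0.627 to 0.799. The bins of highest and lowest mean thus adjoin each other at 35 Mb.

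The deposited scores placed these contacts in 3 stretches and a single further row. A stretch here runs from the first to the last row with a score of at least 3 in all 6 libraries, and rows less than 501 fragments apart were joined because their scores share fragments. Each stretch held fewer fragments than a running window, so its bounds are less exact than the positions printed below. The bounds rest on the same scores as the peaks within them, and both strains had to be high in them. The values of the stretches therefore only describe them, and no strain test of them is given.

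The first stretch ran from 6287059 to 7985632 and held 347 fragments. It had 70, 111 and 50 captured in SS13BN 1, 2 and 3, and 83, 81 and 68 in SS 1, 2 and 3. Its relative capture averaged 1.91 ± 0.262 (SD, n = 6). The strains overlapped, with 1.84 ± 0.195 in SS13BN and 1.97 ± 0.345 in SS (SD, n = 3 each).

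The second stretch ran from 11980024 to 14357724, with 423 fragments. There, 100, 141 and 62 fragments were captured in SS13BN 1, 2 and 3, and 103, 98 and 87 in SS 1, 2 and 3. The mean relative capture was 2.00 ± 0.296 (SD, n = 6), and the strain means of 1.99 ± 0.362 in SS13BN and 2.01 ± 0.296 in SS (SD, n = 3 each) lay closer together than the libraries of a strain.

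The third and strongest stretch ran from 31055716 to 33486946 and held 468 fragments. Captured fragments numbered 151, 206 and 78 in SS13BN 1, 2 and 3, and 182, 129 and 104 in SS 1, 2 and 3. Relative capture was 3.25, 2.53 and 1.90 in the SS13BN libraries and 3.15, 2.76 and 1.87 in the SS libraries. SS13BN 3 and SS 3 were the lowest of their strains, and the strain means were 2.56 ± 0.677 in SS13BN and 2.59 ± 0.656 in SS (SD, n = 3 each). The further row, from 48660702 to 48665644, was not captured itself in any library. Its scores ran from 3.01 in SS13BN 1 to 4.66 in SS 1.

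Together the 3 stretches and the single row held 1239 fragments, or 8.49% of the chromosome's. They held 20.1%, 16.4% and 14.3% of its captures in SS13BN 1, 2 and 3, and 18.5%, 18.3% and 14.9% in SS 1, 2 and 3, so most captures lay elsewhere in every library. Of the stretches' fragments, the rows at a score of at least 3 in all 6 libraries were 298, 404, 461 and 1. The peak of the score lay in the third stretch in every library. It reached 15.4 at 31991632 in SS13BN 1, 15.0 at 31936753 in SS13BN 2 and 5.48 at 32178258 in SS13BN 3. In the SS libraries it reached 16.5 at 31991632 in SS 1, 11.8 at 32061097 in SS 2 and 6.78 at 32112854 in SS 3. The 6 peak positions thus lay within the 31.9 to 32.2 Mb range, a fraction of the stretch that 1 running window covers.

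The window behind the peak of SS13BN 1, from 30821019 to 33351812, held 163 captured fragments, where the share of the chromosome gives 55.0. The same window gave the peak of SS 1, with 195 captured and 68.2 expected. In SS13BN 3 the peak window held 81 captured against 45.7 expected. Among the highest scores of the 20 chromosomes, that of chromosome 20 had rank 2 in SS13BN 1, rank 1 in SS13BN 2 and rank 16 in SS13BN 3. It had rank 1 in SS 1, rank 6 in SS 2 and rank 8 in SS 3. The rank therefore differed widely between libraries of a strain, and the part played by the differing tables of SS13BN 3 and SS 3 was not tested.

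**Figure D2:**
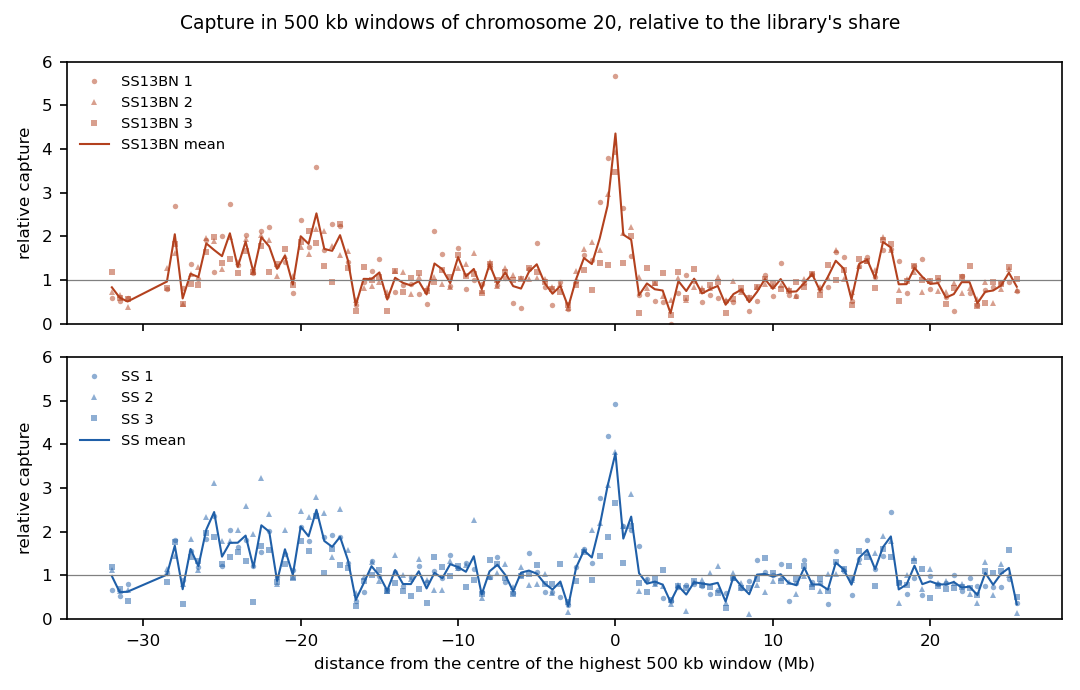
Relative capture (captured share over the library's share outside chromosome 13, vertical axis) of the 112 windows of 500 kb with at least 30 fragments, against distance in Mb from the centre of the highest window, for SS13BN above and SS below. Points are libraries and lines are strain means; the central window is the highest in both strains, at 3.46 to 5.67 in SS13BN and 2.65 to 4.91 in SS.

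In fixed windows of 500 kb, the region from 32000001 to 32500000 stood highest. Of its 89 fragments, 50, 61 and 27 were captured in SS13BN 1, 2 and 3, and 54, 34 and 28 in SS 1, 2 and 3. Relative capture was 5.67, 3.93 and 3.46 in the SS13BN libraries and 4.91, 3.82 and 2.65 in the SS libraries, so the strains overlapped. This was the first of all ranked windows outside chromosome 13 by mean relative capture, and it was also the first when the expectation was set by fragment length, at 3.55 ± 0.965 (SD, n = 6). The strain difference of the window was 0.21 on the log2 scale, SS13BN minus SS (SE 0.22, 95% half-width 0.44; limma adjusted p = 0.999). Without SS 3 it was -0.025.

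It was also the sole window of chromosome 20 called in all 6 libraries, by an exact one-sided binomial test of captured fragments against the library's share (Benjamini-Hochberg adjusted p under 0.05 over 5332 windows). This is 1 of 113 windows on chromosome 20, where 0.713% of the windows of all chromosomes but 13 were called, so the count is near the background. Within a library the binomial test takes fragments as independent, which neighbouring fragments may not be. The rule needs each library, and SS13BN 3 called 2 windows of chromosome 20 and SS 3 called 6, against 17 and 23 in SS13BN 1 and 2 and 17 and 20 in SS 1 and 2. Without SS13BN 3 the count was 3, and without both SS13BN 3 and SS 3 it was 8. In at least 4 libraries, 12 windows of chromosome 20 were called, against 3.96% of all windows. They comprised 5 adjoining windows from 31 to 33.5 Mb and 7 others, which began at 4, 6, 6.5, 10, 12, 13 and 14.5 Mb (given after their values were seen).

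Capture was lower on both sides of the highest window, yet still above the library level. The window below it, from 31500001 to 32000000, had 32, 44 and 10 of 85 fragments captured in SS13BN 1, 2 and 3, and 44, 26 and 19 in SS 1, 2 and 3. Its mean relative capture of 2.87 ± 1.09 (SD, n = 6) had rank 8 of all windows outside chromosome 13. The low values of SS13BN 3, at 1.34, and SS 3, at 1.88, stood apart from the 2.97 to 4.19 of the other 4 libraries. The window above, from 32500001 to 33000000, averaged 1.94 ± 0.519, and that from 31000001 to 31500000 averaged 2.04 ± 0.636 (SD, n = 6; these 2 were chosen after their values were seen). Both were called in 4 libraries, all but SS13BN 3 and SS 3. At the upper end of the stretch, the window from 33000001 to 33500000 averaged 2.13 ± 0.423 (SD, n = 6) and was called in 4 libraries, all but SS13BN 1 and SS13BN 3.

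Within the highest window and its neighbours, captured fragments were densest in 50 kb sub-windows near 32.1 Mb. The sub-window from 32150001 to 32200000 had 6, 6 and 4 of 8 fragments captured in SS13BN 1, 2 and 3, and 6, 4 and 4 in SS 1, 2 and 3. That from 32100001 to 32150000 had 10, 11 and 8 of 15 captured in SS13BN, and 11, 8 and 6 in SS. It held 4 fragments captured in all 6 libraries, the most of the 30 sub-windows. The sub-windows at 31700001, 32400001 and 32050001 followed, with mean captured shares of 58.3% ± 20.4, 54.2% ± 21.9 and 52.4% ± 21.5 (SD, n = 6), on 4, 8 and 7 fragments. With so few fragments, the order of these 5 sub-windows is within the spread between libraries. No sub-window was captured in full in all libraries, and the highest mean share was 62.5% ± 13.7 (SD, n = 6).

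**Figure D3:**
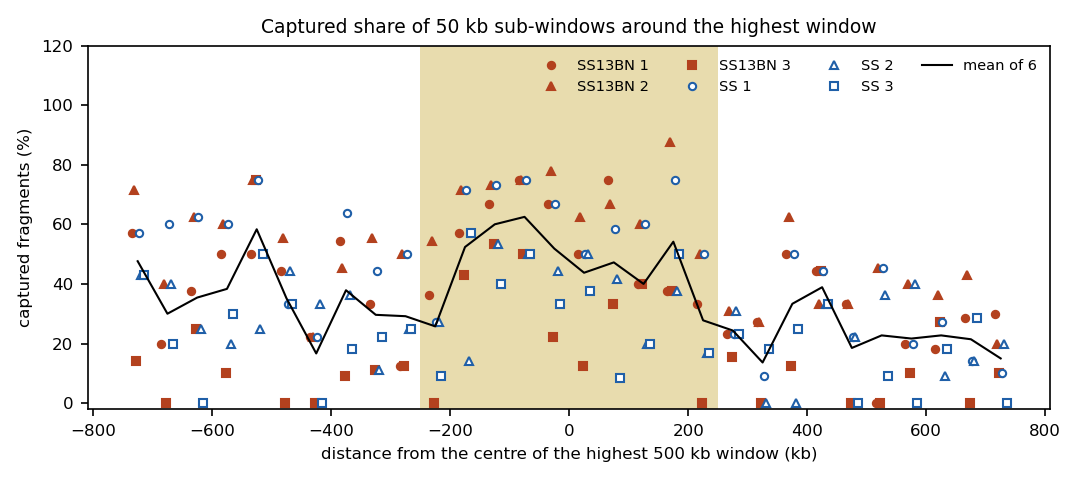
Share of captured fragments (percent, vertical axis) in 50 kb sub-windows against distance in kb from the centre of the highest 500 kb window (shaded). Points are libraries, filled for SS13BN and open for SS, and the line is the mean of 6 libraries, which peaks at 62.5% between 100 and 50 kb below the centre.

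Outside the third stretch, the highest window was that from 13000001 to 13500000, in the second stretch. It had 33, 35 and 15 of 93 fragments captured in SS13BN 1, 2 and 3, and 27, 26 and 26 in SS 1, 2 and 3. Its relative capture averaged 2.51 ± 0.608 (SD, n = 6), and it was called in 5 libraries. The window from 6500001 to 7000000, in the first stretch, averaged 2.07 ± 0.638 (SD, n = 6). In the window from 6500001, 12, 34 and 18 of 103 fragments were captured in SS13BN 1, 2 and 3, and 30, 32 and 23 in SS 1, 2 and 3. Relative capture there was 1.17, 1.89 and 1.99 in SS13BN and 2.36, 3.11 and 1.88 in SS, so SS13BN 1 was the lowest library and the strains overlapped.

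The contacts near 49 Mb were weaker. The windows from 49000001 to 49500000 and from 49500001 to 50000000, chosen after their values were seen, averaged 1.76 ± 0.213 and 1.82 ± 0.344 (SD, n = 6). In the first, relative capture was 1.70, 1.99 and 1.92 in SS13BN 1, 2 and 3, and 1.45, 1.90 and 1.59 in SS 1, 2 and 3. SS13BN 3 and SS 3 lay among the other libraries there. In the second, it was 1.71, 1.69 and 1.83 in SS13BN 1, 2 and 3, and 2.46, 1.79 and 1.43 in SS 1, 2 and 3, with SS 3 the lowest of all and SS 1 the highest.

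The windows of lowest capture lay between and beside these stretches. The lowest mean was that from 35500001 to 36000000, with 0, 11 and 2 of 118 fragments captured in SS13BN 1, 2 and 3, and 6, 4 and 6 in SS 1, 2 and 3. For SS13BN 1, a count of 0 of 118 fragments allows a share of up to about 2.54%. This is the approximate one-sided 95% bound of 3 of 118, with fragments taken as independent. The window from 29000001 to 29500000 had 8, 15 and 9 of 233 fragments captured in SS13BN, and 9, 4 and 11 in SS. Its relative capture of 0.340 ± 0.0931 (SD, n = 6) was below 0.45 in every library. It begins 3 Mb below the start of the highest window. The third lowest, from 39000001 to 39500000, averaged 0.419 ± 0.152 (SD, n = 6).

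No window of chromosome 20 was called depleted in all 6 libraries by the exact binomial test, against 1.89% of all windows, and none with the expectation set by fragment length, against 1.37%. The window from 29000001 to 29500000 was called in 5, and without SS13BN 3 the count was 1. At an unadjusted binomial p under 0.05 in each library the count was 3, against 4.58% of all windows. Scores at the chromosome's ends are low by construction, because the running window is cut there while the expected number is kept at 501 fragments. The first row was at -5.43, -6.82 and -3.52 in SS13BN 1, 2 and 3, and -6.15, -4.43 and -3.69 in SS 1, 2 and 3. Such scores alone therefore do not show few contacts. Relative capture averaged 0.910 ± 0.278 in the window from 1 to 500000 (SD, n = 6). In the window from 500001 to 1000000 it averaged 0.606 ± 0.0708 and ran from 0.518 to 0.685 (SD, n = 6). Both windows were chosen after their values were seen. The longest row, from 1338344 to 3548216, spans 2.21 Mb and was captured in 0 libraries.

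Fragment length moved with capture on chromosome 20. In the shortest of 10 length classes, of 6 to 215 bp, 5.90% ± 1.11 were captured, and in the ninth, of 5539 to 8312 bp, 17.1% ± 4.00 (SD, n = 6). The contact-rich windows also had longer fragments. Over 112 windows, mean relative capture and mean fragment length had a Spearman correlation of 0.576, as a description across neighbouring windows of the same libraries. The fragments of the third stretch had a median of 3932 bp, against 2432 bp for chromosome 20 and 2200 bp for the other autosomes. With the expectation set by fragment length, the 3 stretches still averaged 1.78 ± 0.261, 1.81 ± 0.285 and 2.29 ± 0.556 (SD, n = 6). The highest window was called in all 6 libraries under this expectation too, where 0.3% of all windows were.

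**Figure D4:**
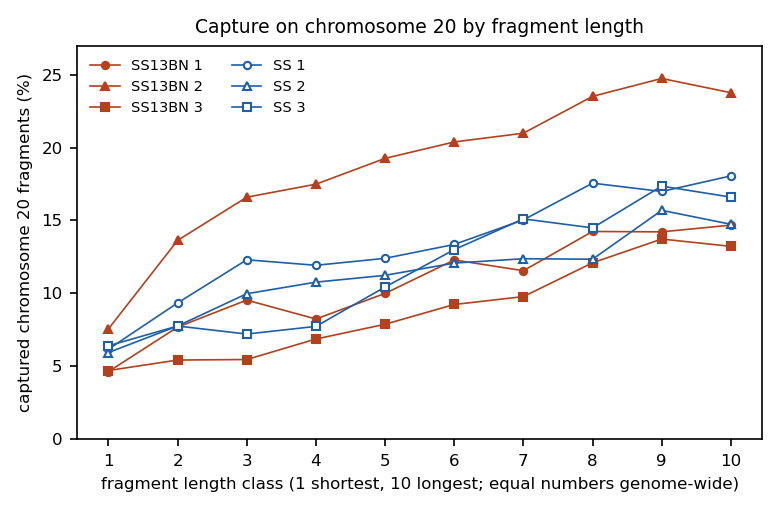
Captured share of chromosome 20 fragments (percent, vertical axis) in 10 length classes that hold equal numbers of all fragments outside chromosome 13, by library, filled symbols for SS13BN and open for SS. In the means of 6 libraries capture is 5.90% in the shortest class and 17.1% in the ninth.

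Between strains, no 500 kb window of chromosome 20 differed in the limma test, fitted over 5296 windows of all chromosomes but 13. Of 112 windows tested, 0 passed the adjusted threshold of 0.05, against 0% of all windows. The lowest adjusted p on the chromosome was 0.999. Before adjustment, 6 windows had p under 0.05, 3 of them higher in SS13BN, against 3.02% of all windows. The strains did not overlap in 8 of the 112, against 7.8% of all windows. The fitted mean was higher in SS13BN in 52 windows and lower in 60. The median difference was -0.020 on the log2 scale, beside -0.0045 over all windows.

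The 3 windows with the smallest p had few captures or overlapping strains. The last window, from 57500001, had 5, 9 and 6 of 67 fragments captured in SS13BN 1, 2 and 3, and 3, 1 and 4 in SS 1, 2 and 3. Its log2 difference, SS13BN minus SS, was 1.14 (SE 0.46; limma adjusted p = 0.999). The window from 45500001 to 46000000 had 12, 26 and 17 of 144 captured in SS13BN, and 6, 15 and 11 in SS, a log2 difference of 0.73 (SE 0.31) that was 0.34 without SS 1. The third was the window from 6500001 described above, with a log2 difference of -0.52 (SE 0.22) that was -0.29 without SS13BN 1 and -0.34 without SS 2. The adjusted p was 0.999 for these 2 windows as well. Over chromosome 20 windows, the 95% half-width had a median of 0.53 on the log2 scale, which is a precision and not a detection limit.

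Broader bins narrowed this to 0.22 at the median. Of 12 bins of 5 Mb on chromosome 20, 0 passed the adjusted threshold of the limma test and 0 reached p 0.05 before adjustment, against 0% and 1.64% of all 548 bins. The difference, SS13BN minus SS, was -0.043 ± 0.29 (95% half-width) on the log2 scale for the bin from 30 to 35 Mb, and -0.14 ± 0.25 for that from 5 to 10 Mb. For the bin from 10 to 15 Mb it was 0.0035 ± 0.23.

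The contact calls of the strains, taken alone, gave 1 window for SS13BN and 5 for SS, against 1.58% and 1.86% of all windows. The 4 windows of SS that were not called in all SS13BN libraries were called in 2 SS13BN libraries for 2 of them and in 1 for the other 2. SS13BN 3 captured the fewest fragments of all libraries, and the part of this in the call counts was not tested. The window profiles of the strain means had a Spearman correlation of 0.854 over 112 windows. Between single libraries it averaged 0.694 ± 0.0409 for the 6 pairs within a strain, 0.732 ± 0.0995 for the 3 pairs of the same number and 0.683 ± 0.0720 for the other 6 (SD). These are descriptions, since windows of a library share its depth.

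At the level of single fragments, capture was repeated in few places. Of the 14596 fragments, 8935 were captured in 0 libraries, 2931 in 1 and 221 in all 6. The 221 are 1.51% of the chromosome's fragments, against 1.48% for all chromosomes but 13, so this share is near the background. Of the 221, 48 lay in the stretches and 8 in the highest 500 kb window. These are 3.87% and 8.99% of the fragments there, in places picked for their high capture in these same libraries. In the highest window 20 of 89 fragments (22.5%) were captured in no library, against 61.2% on chromosome 20. The only run of at least 3 neighbouring fragments captured in all 6 libraries was from 7499393 to 7515664, in the first stretch. Runs of 2 numbered 15, of which 1 lay in the highest window, from 32119912 to 32120780.

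Compared with the other chromosomes, chromosome 20 had rank 5 of 20 in mean relative capture, at 1.08 ± 0.0530, next to chromosome 19 at 1.14 ± 0.0376 and chromosome 8 at 1.08 ± 0.0230 (SD, n = 6). It differed more in how unevenly its captures were spread. The SD of relative capture over its 500 kb windows was 0.805, 0.546 and 0.482 in SS13BN 1, 2 and 3, and 0.689, 0.728 and 0.443 in SS 1, 2 and 3. The median of the other autosomes was 0.541, 0.406 and 0.452 in SS13BN, and 0.440, 0.484 and 0.418 in SS. Of 20 chromosomes, chromosome 20 had rank 1 in SS13BN 1 and 2, rank 4 in SS13BN 3, rank 1 in SS 1 and 2, and rank 6 in SS 3.

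The ratio of these SDs was above 1 in 6 of 6 libraries, with a mean log2 of 0.40 and an exact two-sided sign-flip permutation p of 0.03125, the smallest that 6 libraries allow. This measure was chosen after the profiles were seen. The call was lost with the expectation set by fragment length, at 0.34 with an exact permutation p of 0.0625, and without the highest window, at 0.24 with 0.125. In SS13BN 3 and SS 3 the ratio was 1.07 and 1.06, against 1.34 to 1.57 in the other libraries.

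**Figure D5:**
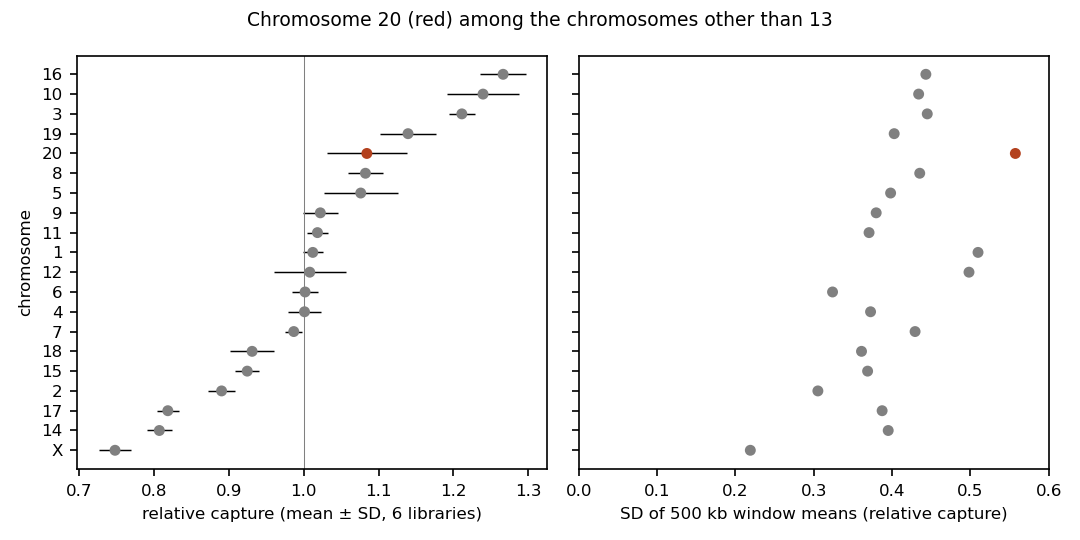
Left, relative capture of each chromosome (mean ± SD of 6 libraries), ordered from high to low; right, SD of the 500 kb window means of relative capture on the same chromosomes. Chromosome 20, in red, has rank 5 by level at 1.08 and rank 1 by spread at 0.557, ahead of chromosome 1 at 0.510. Neither measure is adjusted for fragment length.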

How the data were processed

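Each library's deposited table holds a score for every EcoRI fragment, made by the authors. The build, rn5, and CASAVA 1.8 are named in the submitters' processing notes. The aligner, read filters and scoring program: not given in the sources used here. Because the score is a running z-score, read depth is unknown, and only capture or no capture could be solved. The tables' positions are printed unchanged and may be off by 1 base in a browser.

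States were solved per chromosome, and the solver and the strain test were checked on simulated data. In that check the strain test called 0 of 100 windows changed 1.5-fold and 10 of 100 changed 2-fold. It thus missed most differences of this size, and windows without a call are not shown to be equal between strains. Fragments were assigned to windows by midpoint. Strains were compared with limma 3.58.1 under R 4.3.3, its variance prior following the mean level, on log2(captured + 1), scaled to the mean library total, for windows with a mean of at least 1. Adjustment was by Benjamini-Hochberg over all windows. The pseudocount makes fold changes of sparse windows too small. Single values had exact permutation tests. The software was Python 3.11.15 with scipy 1.17.1, numpy 2.4.6, matplotlib 3.10.9 and pandas 2.3.3.

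The region, windows and tests were chosen with earlier results of these data known. Windows were named by rule: those called in all 6 libraries, the 5 highest and 3 lowest with at least 30 fragments, the 3 of smallest strain p, the 5 densest 50 kb sub-windows, runs of 3 fragments, the extreme 5 Mb bins and the score peaks. Chromosome 13 was not analysed here. Alternatives covered the pseudocount, filter, scaling, window size, expectation, replicate block and each library left out.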

Additional observations from a re-analysis of the deposited data

How the results depend on the processing

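The strain tests of 500 kb windows and 5 Mb bins called 0 on chromosome 20 under all 14 and 12 alternatives tried, with 2 to 10 windows and 0 to 1 bins at an unadjusted limma p under 0.05. With replicate number as a block 0 windows passed. Nothing in the labels says whether the numbers pair the libraries. Between strains, window deviations of same-numbered libraries correlated at 0.0875, 0.130 and 0.0834. Those of differently numbered libraries ran from -0.0932 to -0.00753, so in these deviations, over 5296 windows, each library correlated best with its own number. The correlations share libraries and are not independent, so the negative ones are no separate support. Chromosome 20 profiles alone differed in Spearman correlation. SS13BN 1 was at 0.732 with SS 3 and 0.715 with SS 1, and SS13BN 3 at 0.651 with SS 2 and 0.642 with SS 3. SS13BN 2 was highest with SS 2, at 0.839. Whether same-numbered libraries were handled together was not tested. The whole-chromosome level had a mean log2 of 0.12 with chromosome X included, where it passed, and 0.075 to 0.12 with single libraries left out. Its strain difference of -0.0037 was the same with the replicate block (exact permutation p = 1), and ran from -0.061 to 0.041 with single libraries left out, turning positive without SS13BN 3, SS 1 or SS 2. The contact window count was 3 with 1 Mb windows, 1 to 3 with single libraries left out and 8 without both libraries numbered 3, an alternative added later. Leaving out libraries also loosens a rule that needs all of them. Depleted windows numbered 0 to 1 with single libraries left out. Score stretches, counting the single row, numbered 2 at a threshold of 4 and 3 to 4 with single libraries left out. The log2 ratio of window spread was 0.34 with the expectation by fragment length, 0.24 without the highest window and 0.35 to 0.47 with single libraries left out, where 5 libraries cannot give an exact p under 0.0625. The strain difference of the highest window ran from -0.025 to 0.41 with single libraries left out, and that of the last window turned to -0.019 on mean deposited scores. Other directions held. Without read numbers, the value of a 500 kb window rests only on the captured share of its fragments. These numbered 89 in the highest window and 233 in the window from 29000001.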
